A study of Homo sapiens with 4 samples.

Results

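The genes described here carry NDUF symbols, and most encode nuclear subunits or assembly factors of respiratory complex I. They were chosen by symbol. NDUFA4 and NDUFA4L2 are not complex I subunits in the usual sense but carry such symbols, and they are counted below among the complex I genes. The rows taken from the deposited table have a name that starts with NDUFA, NDUFB, NDUFC, NDUFS, NDUFV, NDUFAB or NDUFAF followed by a digit. The rule used no values, although it was set with earlier results of these data known. The rule found 49 rows with 47 different symbols among the 20372 genes of the table, and 45 of the rows had enough reads to be tested. NDUFAF8 is listed in the table under its older symbol C17orf89 and was therefore outside the rule.

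The RNA came from TPC1 cells, an established line of human papillary thyroid carcinoma in which a CCDC6-RET fusion keeps the RET kinase active. Over 24 h, cells of 2 libraries received BLU6864, an inhibitor of RET (group RETi), and cells of the other 2 libraries received BLU6864 together with BGJ398, an inhibitor of FGFR (group RETi + FGFRi). The comparison asks what FGFR inhibition adds to RET inhibition. Each inhibitor was given at 100 µM per the labels and at 100 nM per the methods of the study, which leaves the unit in doubt. Both groups received BLU6864, no vehicle or BGJ398-only library was analysed here, and 1 cell line stands for the disease.

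Libraries held 24695040 to 27457040 counts, and 12794 genes were tested with edgeR's quasi-likelihood test. A gene was called at a Benjamini-Hochberg adjusted p under 0.05. Levels are the deposited normalised counts, that is, read counts divided by 1 factor per library, and changes are log2 fold changes of RETi + FGFRi over RETi. Whether replicate libraries stem from separate cultures is not stated in the labels. The p-values therefore measure only library-to-library spread, which may be technical. The thyroid factor PAX8 lay at 18290.3 to 20771 normalised counts and RET at 1369 to 1459.5, whereas NKX2-1 and TSHR were at 0 to 1.01 and EPCAM and CDH1 at 0 to 2.88. FOXE1, at 365 to 533, and TG, at 96.1 to 158, did not overlap between the groups and were not called (log2 fold changes of -0.30 and 0.44, adjusted p of 0.097 and 0.10). Of the leukocyte markers, CD68 lay at 2292 to 2664 normalised counts and was not called, and PTPRC and CD3E were at 0 to 2.94. The fibroblast markers COL1A1 and PDGFRB lay at 52.4 to 132 and were not called, COL1A2 was at 0 to 1.06 and the endothelial marker CDH5 at 0 to 0.981. The muscle markers MYH7, ACTN2 and CKM, checked because muscle is rich in mitochondria, were at 0 to 5.3. Of 4 tested keratin markers 3 fell (KRT18, KRT7 and KRT8), and the summed epithelial list went from 3284 to 3299 normalised counts after RETi to 2251 to 2557 after RETi + FGFRi. Its part in the results below was not tested, and in bulk RNA fewer cells of a type and less RNA per cell cannot be told apart.

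Complex I, or NADH:ubiquinone oxidoreductase, is the entry point of electrons from NADH into the mitochondrial respiratory chain. It is an L-shaped enzyme whose matrix arm holds the flavin and the iron-sulfur clusters and whose membrane arm pumps protons. Core subunits, conserved from bacteria, carry out catalysis, accessory subunits form a shell around them, and assembly factors act on intermediates and are absent from the finished enzyme. The proton-pumping core of the membrane arm is encoded by mitochondrial DNA, so the complex draws on both genomes.

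NRF1, the nuclear respiratory factor, is a transcription factor known for controlling nuclear genes of respiration, and its palindrome-like site GCATGCGC was searched in promoters of the members on both strands. Promoter sequences were those of RefSeq (GRCh38.p14), from 250 bases before to 50 bases after a start site, and 39 of the 47 symbols had 49 promoter entries. The letters were present in 8 of the 49 entries (16.3%) and in 3.05% of all 35116 promoters of that length. The 8 genes were NDUFA5 and NDUFA6, which rose in the comparison described next, NDUFS6, which fell, and NDUFA8, NDUFAF4, NDUFAF5, NDUFB4 and NDUFS7, which did not pass the test. The 4 promoters below, 200 bases upstream of the start site and written 5′ to 3′ on the strand of the gene, are shown because they hold the same letters beside unlike changes. Capitals mark GCATGCGC or its reverse complement. The NDUFA6 promoter lies at chr22:42090773-42090972 on the minus strand, NDUFS6 at chr5:1801207-1801406, NDUFB4 at chr3:120596136-120596335 and NDUFS7 at chr19:1383707-1383906, the last 3 on the plus strand.
NDUFA6: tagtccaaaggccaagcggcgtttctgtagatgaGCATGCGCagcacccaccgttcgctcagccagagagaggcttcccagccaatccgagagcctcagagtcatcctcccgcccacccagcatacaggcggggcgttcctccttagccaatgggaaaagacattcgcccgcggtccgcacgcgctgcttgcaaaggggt
NDUFS6: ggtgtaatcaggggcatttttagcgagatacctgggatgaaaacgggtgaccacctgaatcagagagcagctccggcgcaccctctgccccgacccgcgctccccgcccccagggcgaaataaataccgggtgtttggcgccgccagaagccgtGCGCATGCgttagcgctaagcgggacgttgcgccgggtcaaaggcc
NDUFB4: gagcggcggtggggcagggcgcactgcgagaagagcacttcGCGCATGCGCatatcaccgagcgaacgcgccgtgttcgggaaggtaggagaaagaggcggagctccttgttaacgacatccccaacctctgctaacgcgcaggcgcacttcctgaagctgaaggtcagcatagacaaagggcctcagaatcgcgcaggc
NDUFS7: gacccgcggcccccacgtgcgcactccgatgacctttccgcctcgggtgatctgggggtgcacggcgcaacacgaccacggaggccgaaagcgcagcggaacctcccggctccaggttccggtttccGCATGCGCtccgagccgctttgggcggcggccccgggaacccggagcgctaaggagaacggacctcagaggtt

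In these windows the letters began at base -166 from the start site in NDUFA6, -46 in NDUFS6 and -73 in NDUFS7, and the 2 overlapping copies in NDUFB4 began at -159 and -157. The log2 fold changes of the same genes were 0.40 for NDUFA6 and -0.31 for NDUFS6, both called, and 0.024 for NDUFB4 and 0.080 for NDUFS7, neither called. A match of letters is a description and not evidence of binding.

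More complex I genes were higher than lower after RETi + FGFRi. Of the 45 tested, 18 rose (12.8% of all genes tested rose), 2 fell (11.3% of all genes fell) and 25 did not pass the test. The median log2 fold change was 0.22, against 0.00043 over all genes tested, and 36 of the 45 values were positive. Both RETi + FGFRi libraries lay above both RETi libraries for 28 of the genes (32.1% of all genes tested) and below them for 7 (33% of all genes). The groups overlapped for 10, and over all genes 65.1% did not overlap in either direction. The changes were small, with rises of 1.23-fold to 1.59-fold among the called genes. The 18 that rose include NDUFA4, which is not a complex I subunit and had the top value of 1.59-fold. NDUFB5 was next, at 1.53-fold.

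The count of calls rested partly on single libraries. Without RETi + FGFRi replicate 2, 12 genes rose and 3 fell (13.4% and 11.6% of all genes), and the median was 0.13. Without RETi + FGFRi replicate 1, 21 rose and 1 fell (14.9% and 11.5%), and the median was 0.33. Leaving out a RETi library lowered the counts over all genes too, to 7 rising and 0 falling without replicate 1 (3.74% and 3.61% of all genes) and 6 rising and 0 falling without replicate 2 (4.93% and 3.91%).

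**Figure D1:**
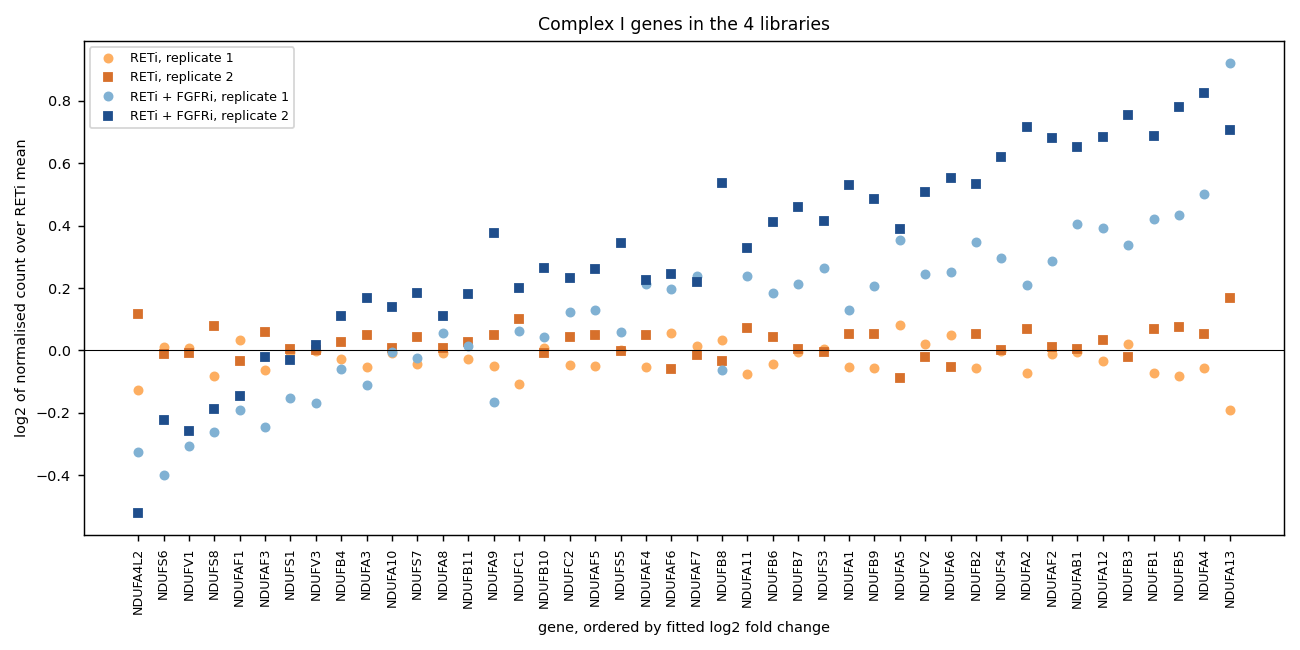
Log2 of the normalised count of tested complex I genes in each of the 4 libraries, relative to the mean of the RETi libraries (y axis), with genes ordered by fitted log2 fold change (x axis). Circles and squares are replicates 1 and 2, orange is RETi and blue is RETi + FGFRi. The blue squares of replicate 2 lie above the blue circles of replicate 1 for 41 of the 45 tested genes, of which 1 is not drawn.

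The 7 nuclear core subunits moved in both directions. NDUFS3 and NDUFV2 rose (12.8% of all genes tested rose), NDUFV1 fell (11.3% of all genes fell) and 4 did not pass the test. The median log2 fold change of the 7 was -0.094. Without either RETi library 0 of the 7 passed in either direction. No difference between classes of genes was tested, since genes are not replicates and 2 libraries against 2 cannot go below p = 0.333 in a two-sided exact permutation test.

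NDUFS3, a core subunit of the module that leads electrons to ubiquinone, is at chromosome 11, 47586888 to 47606114 in hg19 (ENSG00000213619). In these coordinates NDUFS3 overlaps CELF1, KBTBD4 and PTPMT1. Its normalised counts were 1814 and 1804 after RETi and 2173 and 2410.1 after RETi + FGFRi. The groups did not overlap, and the log2 fold change was 0.34 (SE 0.077, adjusted p = 0.011, edgeR). NDUFV2 (ENSG00000178127, chromosome 18, 9102628 to 9134343), an iron-sulfur subunit of the NADH dehydrogenase module at the tip of the matrix arm, had 1743 and 1693 normalised counts after RETi and 2034 and 2442 after RETi + FGFRi. It rose by 0.38 on the log2 scale (SE 0.090, adjusted p = 0.013, edgeR). Leaving out either RETi library ended both calls, with adjusted p of 0.075 to 0.094.

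NDUFV1 (ENSG00000167792, chromosome 11, 67374323 to 67380006) binds NADH and the flavin and is the partner of NDUFV2 in the enzyme. Its normalised counts were 2366 and 2339 after RETi and 1905 and 1969 after RETi + FGFRi. Both treated libraries with FGFRi were lower, with a log2 ratio of -0.28 (SE 0.071, adjusted p = 0.017, edgeR), the opposite direction to NDUFV2. With RETi replicate 1 or 2 left out, the log2 fold change was -0.28 or -0.29 and the call ended (adjusted p of 0.12 and 0.10).

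Further core transcripts were slightly lower in both RETi + FGFRi libraries without passing the test. NDUFS1, the large iron-sulfur subunit, had 3693 and 3721 normalised counts after RETi and 3337 and 3626 after RETi + FGFRi (log2 fold change -0.094, adjusted p = 0.39, edgeR). NDUFS8, an iron-sulfur subunit named after its values were seen, had 1824 and 2037 against 1611 and 1694 (log2 fold change -0.23, adjusted p = 0.064). In both genes the groups did not overlap. The coordinates of NDUFS1 overlap those of EEF1B2. Over the 13 alternatives tried, such as leaving out a library, NDUFS8 had log2 fold changes of -0.44 to -0.14. It passed the test as lower under 5 of them.

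Accessory subunits held most of the rises. Of 29 tested, 14 rose (12.8% of all genes tested rose), NDUFS6 fell (11.3% of all genes fell) and 14 did not pass. Of the values 27 were positive, around a median log2 fold change of 0.30. The letters of the symbol place some accessory subunits under S and V, and NDUFA4 and NDUFA4L2 under A. So grouped, 14 of 27 A, B and C genes rose and 0 fell (median 0.34). Of 11 S and V genes 3 rose and 2 fell (median -0.076). Without RETi + FGFRi replicate 2, 9 of the 29 accessory subunits rose and 1 fell, and the median was 0.19. With replicate 1 left out instead, 17 rose and 0 fell, with a median of 0.41. Without RETi replicate 1 or 2, 6 or 5 rose and 0 fell.

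**Figure D2:**
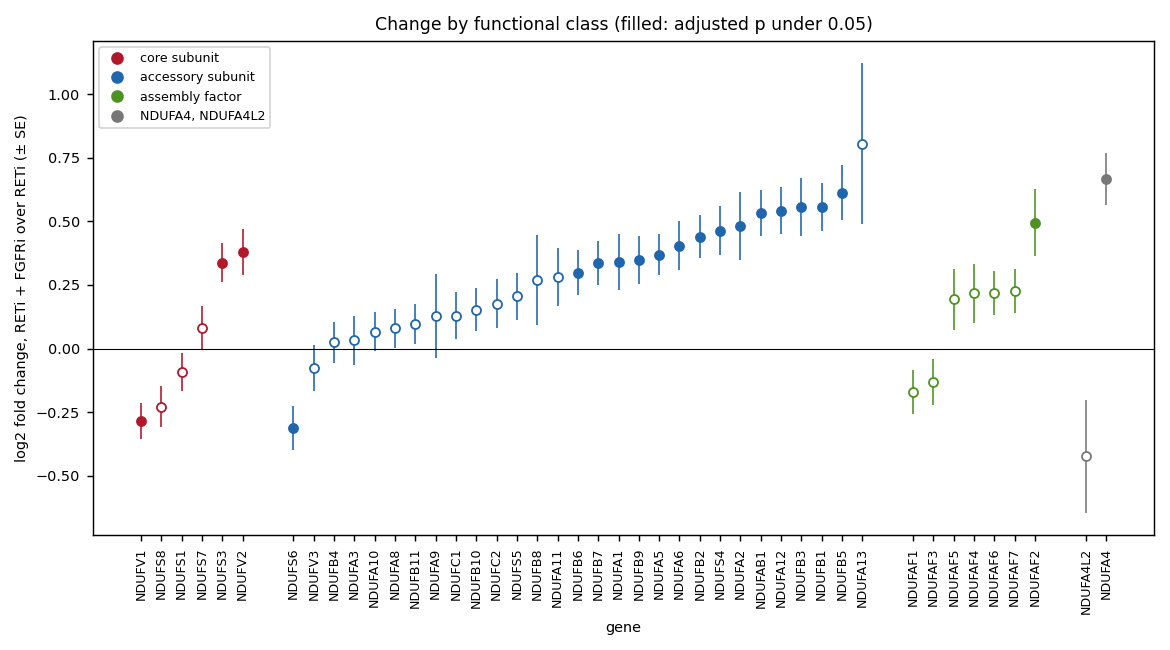
Fitted log2 fold change of tested complex I genes, 1 of them not drawn (y axis, bars are ± 1 SE), grouped by functional class (x axis), with filled points for an adjusted p under 0.05. Core subunits run from -0.28 (NDUFV1) to 0.38 (NDUFV2), and all but 2 of the 29 accessory subunits lie above 0.

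Matrix arm accessory subunits that rose were NDUFA12, NDUFS4, NDUFA5, NDUFA6 and NDUFA2. NDUFA12 (ENSG00000184752, chromosome 12, 95290831 to 95397546), which sits in the NADH dehydrogenase module, had 2175 and 2276 normalised counts after RETi and 2922 and 3575 after RETi + FGFRi. All 4 values kept the groups apart, and the log2 difference was 0.54 (SE 0.094, adjusted p = 0.0029, edgeR). NDUFS4 (chromosome 5, 52856463 to 52979168), a matrix arm subunit whose loss causes Leigh syndrome, had 1786 and 1791 against 2195 and 2747. It rose by 0.46 on the log2 scale (SE 0.097, adjusted p = 0.0074), and its adjusted p was 0.061 and 0.052 without RETi replicates 1 and 2.

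NDUFA5 (chromosome 7, 123177051 to 123198309), of the ubiquinone module, had 1559 and 1388 normalised counts after RETi and 1882 and 1931 after RETi + FGFRi. Its RETi + FGFRi libraries differed little from each other, unlike those of most members, and the log2 fold change was 0.37 (SE 0.081, adjusted p = 0.0090, edgeR). The call ended without RETi replicate 2 (adjusted p = 0.11). NDUFA6 (chromosome 22, 42481529 to 42486959), a LYR-motif protein that holds an acyl carrier protein on the matrix arm, had 1793 and 1669 against 2058 and 2535. Its log2 fold change was 0.40 (SE 0.096, adjusted p = 0.013), and the call ended without RETi replicate 1 (0.058) or RETi replicate 2 (0.11). NDUFA2, a thioredoxin-fold subunit of the same arm, rose by 0.48 (adjusted p = 0.025), a call that ended without RETi + FGFRi replicate 2 (0.12) or without either RETi library (0.16 for replicate 1 and 0.069 for replicate 2). NDUFA2 overlaps IK and TMCO6 in the deposited coordinates.

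NDUFS6 (ENSG00000145494, chromosome 5, 1801514 to 1816719), a zinc-binding accessory subunit of the NADH dehydrogenase module, went the other way. Its normalised counts were 871 and 856 after RETi and 654 and 739.9 after RETi + FGFRi. Both libraries with FGFRi were lower, and the log2 difference was -0.31 (SE 0.087, adjusted p = 0.026, edgeR). The call ended without RETi replicate 1 (adjusted p = 0.14), RETi replicate 2 (0.12) or RETi + FGFRi replicate 1 (0.11). With the core subunits included, 7 of 15 tested matrix arm genes rose (12.8% of all genes tested rose) and 2 fell (11.3% of all genes fell). Their median log2 fold change was 0.13, or -0.022 without RETi + FGFRi replicate 2 and 0.37 without RETi + FGFRi replicate 1. Without RETi replicate 1 or 2, 2 or 1 of the 15 rose and 0 fell. With the transcript length trend removed, 4 of the 15 rose (13% of all genes) and 5 fell (13%). With the coding length trend removed 5 rose (13.6% of all genes) and 3 fell (13.8%).

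Membrane arm accessory subunits, which flank the proton pumps, rose in 8 of 20 tested (12.8% of all genes tested rose), with none lower at the threshold (11.3% of all genes fell). Their median log2 fold change was 0.27, and all 20 values were positive in the fit, 19 of 20 with scaling by library totals, 12 of 20 with the transcript length trend removed, 13 of 20 with the coding length trend removed and 16 of 20 without RETi + FGFRi replicate 2. With the transcript length trend removed, 3 of the 20 rose (13% of all genes) and 1 fell (13%), with a median of 0.035. With the coding length trend removed, 5 rose (13.6% of all genes) and 1 fell (13.8%), with a median of 0.096. Without RETi + FGFRi replicate 2, 4 of the 20 rose, with a median of 0.13, and without RETi replicate 1 or 2, 3 rose.

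NDUFB5 (ENSG00000136521, chromosome 3, 179322478 to 179345435), a single-pass subunit of the distal membrane arm, was among the most abundant accessory transcripts. Its normalised counts were 4115 and 4587 after RETi and 5881 and 7459.9 after RETi + FGFRi. The log2 fold change was 0.61 (SE 0.11, adjusted p = 0.0031, edgeR). NDUFB1 (chromosome 14, 92582466 to 92588261), a small subunit of the same region, had 1613 and 1776 against 2268 and 2728 (log2 fold change 0.56, SE 0.095, adjusted p = 0.0027). NDUFB3 (chromosome 2, 201936156 to 201950473) had 1245 and 1212 against 1551 and 2069.8 (log2 fold change 0.56, SE 0.11, adjusted p = 0.0066). NDUFB3, another distal subunit, overlaps FAM126B, and without RETi replicate 2 its adjusted p was 0.051.

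NDUFB2 (chromosome 7, 140390577 to 140422590) had 3006 and 3242 normalised counts after RETi and 3973 and 4521 after RETi + FGFRi. The groups did not overlap and the log2 fold change was 0.44 (SE 0.084, adjusted p = 0.0047, edgeR), with an adjusted p of 0.069 without RETi replicate 1. The coordinates of NDUFB2 overlap those of ADCK2 and BRAF. NDUFB9 (chromosome 8, 125551344 to 125580751), a LYR-motif protein that carries an acyl carrier protein on the membrane arm, had 4079 and 4399.7 against 4888 and 5934 (log2 fold change 0.35, adjusted p = 0.023). Its adjusted p was 0.070 without RETi + FGFRi replicate 2 and 0.18 and 0.074 without RETi replicates 1 and 2, and it overlaps MTSS1 and TATDN1. NDUFB7, NDUFB6 and NDUFA1 also rose, by 0.34, 0.30 and 0.34 on the log2 scale (adjusted p of 0.018, 0.033 and 0.047), and each of these calls ended without RETi + FGFRi replicate 2 (0.061, 0.13 and 0.27) and without either RETi library.

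NDUFAB1 (ENSG00000004779, chromosome 16, 23592323 to 23607677), the mitochondrial acyl carrier protein, is bound to both arms through NDUFA6 and NDUFB9 and also serves fatty acid synthesis. It had 1088 and 1097 normalised counts after RETi and 1448 and 1717 after RETi + FGFRi, and the RETi libraries were nearly equal. The log2 fold change was 0.53 (SE 0.090, adjusted p = 0.0027, edgeR). The acyl carrier protein and both LYR-motif partners were each called higher in separate tests, and a joint change was not tested. Of the 13 alternatives, NDUFAB1 was called higher in 13, NDUFA6 in 11 and NDUFB9 in 9.

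Of 7 assembly factors tested, NDUFAF2 rose (12.8% of all genes tested rose), 0 fell and 6 did not pass, with a median log2 fold change of 0.22. Both RETi + FGFRi libraries lay above both RETi libraries for 5 of the 7 (32.1% of all genes). NDUFAF2 (chromosome 5, 60240956 to 60448853), a paralogue of NDUFA12 that acts before the NADH dehydrogenase module is completed, had 299 and 304 normalised counts after RETi and 367 and 483 after RETi + FGFRi. Its log2 fold change was 0.49 (SE 0.13, adjusted p = 0.021, edgeR). The call ended without RETi + FGFRi replicate 2 (adjusted p = 0.11), RETi replicate 1 (0.12) or RETi replicate 2 (0.10).

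NDUFAF7, a methyltransferase that acts in early assembly, had 596 and 584 normalised counts after RETi and 697 and 687 after RETi + FGFRi (log2 fold change 0.23, adjusted p = 0.075, edgeR). NDUFAF6, which acts early in assembly, had 616 and 569 against 679 and 702 (log2 fold change 0.22, adjusted p = 0.093). These genes were higher in both RETi + FGFRi libraries and did not pass the test, and they overlap PRKD3 and CEBPZ, and CCNE2 and TP53INP1, respectively. NDUFAF3, which acts with NDUFAF4 on the ubiquinone module, had 1409 and 1533 against 1241 and 1449, with overlapping groups (log2 fold change -0.13, adjusted p = 0.31).

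Among members that are not complex I subunits in the usual sense, NDUFA4 (ENSG00000189043, chromosome 7, 10971578 to 10979883) had the smallest p of all members. NDUFA4 was named as a complex I subunit and is now assigned to cytochrome c oxidase, complex IV. Its normalised counts were 4698 and 5061 after RETi and 6911 and 8632 after RETi + FGFRi. It rose 1.59-fold, or by 0.67 on the log2 scale (SE 0.10, adjusted p = 0.0016, edgeR). Its paralogue NDUFA4L2, known as a hypoxia-induced gene, was low, at 60.8 and 71.9 against 53.0 and 46.3 normalised counts. The paralogue did not pass the test (log2 fold change -0.42, adjusted p = 0.19), and it overlaps SHMT2.

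Of the 20 called genes, NDUFA4, NDUFAB1, NDUFA12 and NDUFB5 passed the test in the same direction under all 13 alternatives tried. Another 3, NDUFB3, NDUFS4 and NDUFA6, did so under the 9 alternatives that kept all libraries.

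The 4 rows that were not tested had few or no reads. The readthrough transcript NDUFC2-KCTD14 and a second entry of NDUFB8 had 0 counts in every library. NDUFA7 is listed under 2 identifiers, of which 1 had 0 to 1.06 normalised counts and the other 7.85 to 15.9. Both overlap each other and RPS28, and the first also overlaps CD320, so the level of this matrix arm subunit is uncertain. NDUFA13, a membrane arm subunit that overlaps YJEFN3 and TSSK6, was tested at a low level, with 15.7 and 20.1 normalised counts against 33.9 and 29.2, and had the highest log2 fold change of the members without passing the test (0.81, SE 0.32, adjusted p = 0.087, edgeR). In all, 26 member rows overlapped another gene of the table, and for 22 that gene had a mean of at least 10 normalised counts. Among these rows were also NDUFB6, NDUFA1 and NDUFAF3, which overlap GVQW1, RNF113A and DALRD3, respectively.

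Levels per kilobase of the canonical transcript ranged widely among the tested members, from 28.1 normalised counts per kilobase for NDUFA9 to 7926 for NDUFB2. NDUFA1, NDUFB9, NDUFB1 and NDUFS5 followed NDUFB2, at 7809, 6983, 6613 and 6354 normalised counts per kilobase. NDUFAF5 and NDUFA4L2 were near the low end, at 48.2 and 61.5. The length of the transcript that these cells use was not measured, and a long 3′ end in the annotation lowers the level per kilobase.

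Members were short, and genes with short transcripts rose more often than they fell after RETi + FGFRi. The median transcript was 804 nt for the 45 tested members and 3357 nt over all genes tested. Of 720 tested genes under 1000 nt, 242 rose and 35 fell, with a median log2 fold change of 0.24. Among the 28 members under 1000 nt, 13 rose and 1 fell, with a median of 0.31. Among the 17 members of 1000 nt or more, 5 rose (NDUFA4, NDUFB5, NDUFA5, NDUFA6 and NDUFB6) and 1 fell (NDUFV1), with a median of 0.19. Of all 11912 tested genes of that length 1383 rose and 1402 fell, with a median of -0.012. From 1000 to 2000 nt the 6 members had a median of 0.024, against 0.029 for all genes. From 2000 to 4000 nt the medians were 0.22 for 4 members and -0.046 for all genes. From 4000 nt they were 0.13 for 7 members and -0.0011 for all genes.

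**Figure D3:**
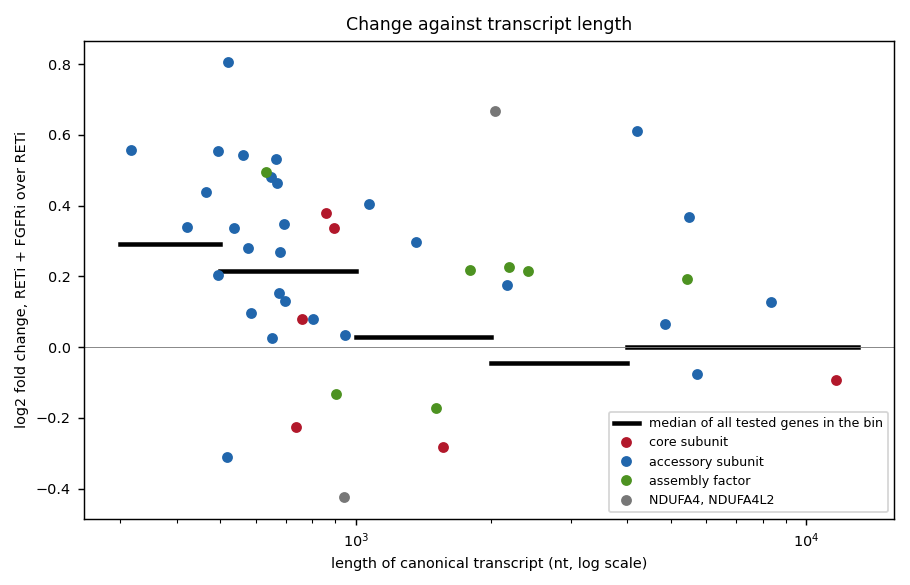
Log2 fold change of tested complex I genes, 1 of them not drawn (y axis), against the length of the canonical transcript (x axis, log scale), coloured by class, with black bars for the median of all tested genes in each length range. The median of all genes is 0.29 under 500 nt, where members lie on both sides of it, at 0.20 to 0.56. From 2000 to 4000 nt it is -0.046, and all 4 members lie above it, at 0.18 to 0.67.

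When the trend over transcript length was removed library by library, 10 members rose (13% of all genes tested) and 7 fell (13% of all genes), with a median log2 fold change of 0.10. The falls included NDUFV1, NDUFS1, NDUFS8, NDUFS6, NDUFB4 and NDUFAF3. By class, 0 of 7 core subunits then rose and 4 fell (median -0.21), 8 of 29 accessory subunits rose and 2 fell (median 0.10), and 1 of 7 assembly factors rose and 1 fell (median 0.22). NDUFA1, called higher without the correction, then had a log2 fold change of -0.015 (adjusted p = 0.91), and NDUFB1, NDUFB2 and NDUFB7 had 0.14, 0.12 and 0.044 (adjusted p of 0.16, 0.24 and 0.68). The calls of NDUFS3, NDUFV2, NDUFAF2, NDUFB9 and NDUFA2 ended too, with adjusted p of 0.082, 0.058, 0.12, 0.25 and 0.10. With the trend over coding length removed instead, a choice made after seeing the data, 14 members rose (13.6% of all genes) and 6 fell (13.8%), with a median of 0.12. With that trend removed the calls of NDUFA5, NDUFB6, NDUFB7, NDUFA2 and NDUFA1 ended, with adjusted p of 0.14, 0.23, 0.074, 0.092 and 0.85. Without the filter on low counts NDUFA1 had an adjusted p of 0.056.

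**Figure D4:**
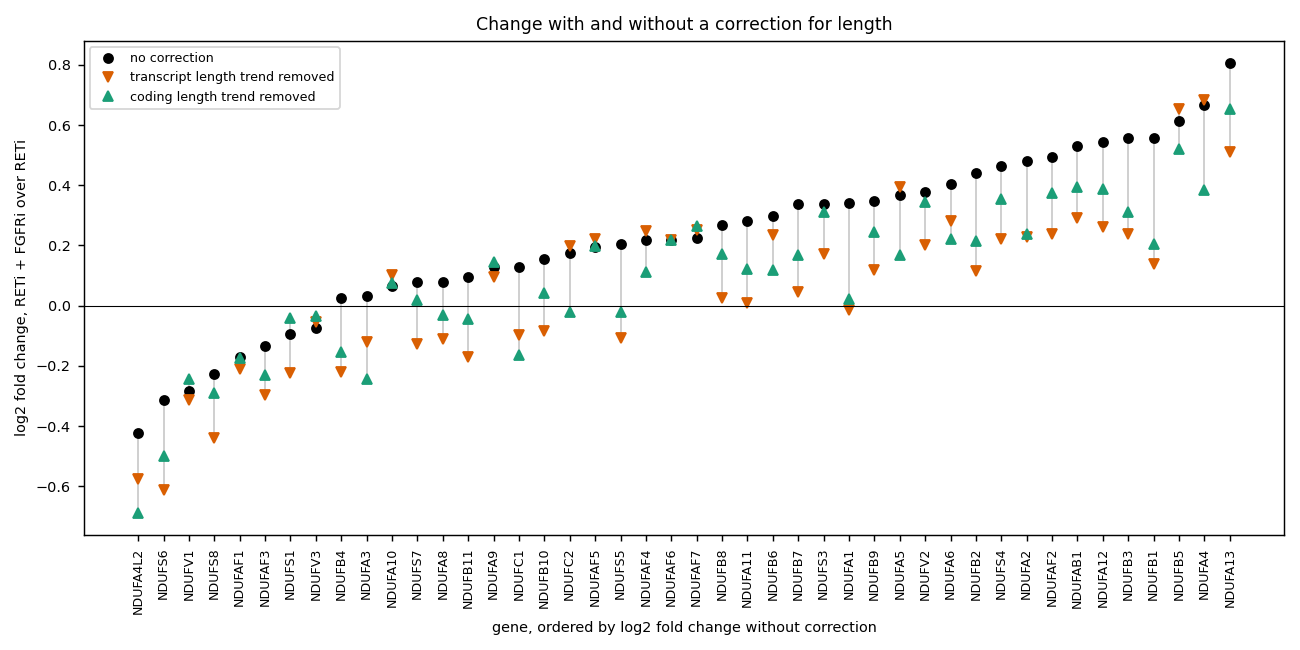
Log2 fold change of tested complex I genes, 1 of them not drawn, without correction (black circles) and with the trend over transcript length (orange triangles) or coding length (green triangles) removed. The y axis is the log2 fold change and the x axis orders genes by the uncorrected value. NDUFA4 and NDUFB5 keep values of 0.68 and 0.65 with the transcript length trend removed, and NDUFA1 goes from 0.34 to -0.015.

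Base composition moved with the changes as well. The median GC content of the transcript was 44.5% for the 18 members that rose, 59.5% for the 2 that fell and 49.0% for the 25 others. Across the 45 members, which share the 4 libraries, GC content and log2 fold change had a Pearson correlation of -0.38 and a Spearman correlation of -0.40, against -0.15 and -0.21 over all 12632 tested genes with a matched transcript. With the GC trend removed, 17 members rose (11.7% of all genes) and 0 fell (11.1%), and NDUFV1 and NDUFS6 had log2 fold changes of -0.21 and -0.24 (adjusted p of 0.055 and 0.071). The calls of NDUFA5 and NDUFB6 also ended (log2 fold changes of 0.17 and 0.25, adjusted p of 0.13 and 0.066). NDUFS6 also missed the threshold in DESeq2 (adjusted p = 0.069).

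The RETi + FGFRi libraries differed from each other along the same line. Replicate 2 was above replicate 1 for 41 of 45 members, by a median log2 difference of 0.17, and the RETi libraries differed by a median of 0.059. The same difference between the RETi + FGFRi libraries was -0.0029 over all genes tested and 0.17 over the 720 genes under 1000 nt. Relative to the RETi mean, the median member lay 0.14 higher in RETi + FGFRi replicate 1 and 0.32 higher in replicate 2, and all genes under 1000 nt lay 0.15 and 0.31 higher. The core subunits lay at -0.15 and -0.043, accessory subunits at 0.19 and 0.40, and assembly factors at 0.20 and 0.21. The part of transcript length, GC content and this library difference in the results for complex I was not tested beyond the values given.

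All 7 mitochondrially encoded subunits, which form the proton-pumping core of the membrane arm, rose (12.8% of all genes tested rose). MT-ND5, a proton-pumping subunit, had 13562 and 13992 normalised counts after RETi and 21883 and 18740.3 after RETi + FGFRi (log2 fold change 0.56, SE 0.097, adjusted p = 0.0030, edgeR). MT-ND2 had 13764 and 14184 against 19831 and 18988 (log2 fold change 0.47, adjusted p = 0.0033), and MT-ND6, encoded on the opposite strand to the others, had 2637 and 2899.9 against 4024 and 3679 (log2 fold change 0.47, adjusted p = 0.0032). In these 3 genes replicate 1 of RETi + FGFRi was the higher library, unlike in most nuclear members. MT-ND1, MT-ND3, MT-ND4 and MT-ND4L rose by 0.41, 0.39, 0.46 and 0.43 on the log2 scale (adjusted p of 0.0096, 0.023, 0.0085 and 0.0045).

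The median of the MT-ND genes was 0.46. None of the 7 passed the test without RETi replicate 1 (median 0.40) and 5 did without RETi replicate 2, while 7 did without either RETi + FGFRi library. With the transcript length trend removed 3 of the 7 rose (13% of all genes), with a median of 0.26. The number was 5 with the coding length trend removed (13.6% of all genes, median 0.40). It was 6 with the GC trend removed (11.7% of all genes, median 0.44). Nuclear copies of mitochondrial DNA can share reads with these genes, so their counts carry that uncertainty.

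Assembly factors without an NDUF symbol were mixed. Of 15 tested, 4 rose (12.8% of all genes tested rose) and 1 fell (11.3% of all genes fell). Their median log2 fold change was 0.069, or -0.017 without RETi + FGFRi replicate 2 and 0.15 without RETi + FGFRi replicate 1. Without RETi replicate 1, 2 rose and 0 fell, with a median of 0.12. TMEM126B, a member of the assembly complex that builds the membrane arm around MT-ND2, had 1369 and 1379.9 normalised counts after RETi and 2036 and 2474 after RETi + FGFRi (log2 fold change 0.71, SE 0.093, adjusted p = 7.6e-04, edgeR). Its paralogue TMEM126A, which acts on the MT-ND4 module, had 493 and 499.6 against 751 and 785 (log2 fold change 0.63, adjusted p = 9.7e-04). COA1, which binds newly made MT-ND2, and TMEM70, a membrane arm and ATP synthase factor, rose by 0.45 and 0.31 (adjusted p of 0.0047 and 0.016). AIFM1, which with CHCHD4 serves import of several subunits, had 1532 and 1396 against 1157 and 1096 and fell by 0.38 on the log2 scale (adjusted p = 0.0088). ACAD9 and ECSIT, partners of TMEM126B in that assembly complex, had log2 fold changes of -0.13 and -0.066 and did not pass (adjusted p of 0.24 and 0.64).

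Regulators of nuclear respiratory genes showed 0 rises and 1 fall among 14 tested, with a median log2 fold change of -0.031. Over all genes tested 12.8% rose and 11.3% fell. MYC, a transcription factor with broad targets that include respiratory genes, had 2553 and 2610.3 normalised counts after RETi and 2064 and 2116 after RETi + FGFRi (log2 fold change -0.31, SE 0.072, adjusted p = 0.012, edgeR). Without either RETi library 0 of the 14 fell, so this call ended. YY1 and ESRRA had log2 fold changes of -0.20 and -0.25 without passing (adjusted p of 0.075 and 0.078), and the mRNA of NRF1 had -0.16 (adjusted p = 0.31). Of the 14 values 7 were positive, among them GABPB2 at 0.18, GABPA at 0.12 and TFAM at 0.075, which did not pass either. PPARGC1A, a coactivator of mitochondrial biogenesis, was below the filter, at 5.3 to 14.4 normalised counts.

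Nuclear subunits of the other respiratory complexes also rose more often than they fell. Over all genes tested 12.8% rose and 11.3% fell. Among the 45 genes chosen by symbol, 18 rose and 2 fell, with NDUFA4 counted there and not under complex IV. Of 42 tested genes of complexes II to V, 23 rose and 1 fell, with a median log2 fold change of 0.31. The numbers rising and falling were 2 and 1 for complex II, 4 and 0 for complex III, 7 and 0 for complex IV, and 10 and 0 for complex V. Among them COX7A2, a small complex IV subunit, rose by 0.67 (adjusted p = 9.8e-04), UQCRB, a small complex III subunit, by 0.65 (adjusted p = 0.0057), and SDHA, the flavoprotein of complex II, fell by 0.36 (adjusted p = 0.010). Without RETi + FGFRi replicate 2, 16 of the 42 rose and 4 fell, and without RETi + FGFRi replicate 1, 33 rose and 1 fell. Without RETi replicate 1, 5 rose and 0 fell, and without RETi replicate 2, 14 rose and 1 fell. With the transcript length trend removed, 16 rose and 4 fell (median 0.14), and with the coding length trend removed, 11 rose and 4 fell (median 0.11). Of 75 tested mitochondrial ribosomal proteins, 22 rose and 2 fell, with a median of 0.17, and with RETi + FGFRi replicate 2 left out the numbers were 13 and 3. They were 39 and 1 without RETi + FGFRi replicate 1, 3 and 0 without RETi replicate 1, and 5 and 0 without RETi replicate 2. With the transcript length trend removed they were 17 and 5 (median 0.091), and with the coding length trend removed 16 and 4 (median 0.098). The difference between these groups and complex I was not tested.

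**Figure D5:**
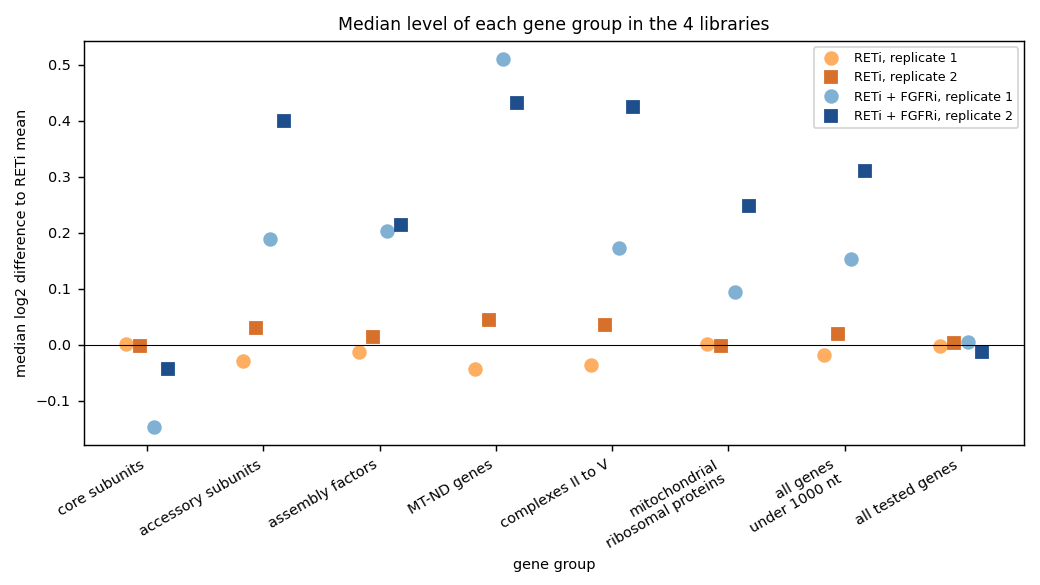
Median log2 difference to the RETi mean (y axis) of each gene group (x axis) in each of the 4 libraries, with circles for replicate 1, squares for replicate 2, orange for RETi and blue for RETi + FGFRi. Core subunits lie at -0.15 and -0.043 in the RETi + FGFRi libraries, the MT-ND genes at 0.51 and 0.43, complexes II to V at 0.17 and 0.43, and all tested genes near 0.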

How the data were processed

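RNA of 4 TPC1 libraries was measured. Per the labels, TruSeq libraries gave single-end reads of 50 bp, and STAR 2.3, DESeq2 and hg19 are named in the processing notes of the submitters. The methods of the study instead describe paired-end reads and a newer STAR version, and the conflict was not settled. The counting tool and any use of strand were not given in the sources used here. Raw read counts per gene were deposited without normalisation. Normalised counts were deposited beside them, a signal that equals the raw count over a constant for each library. Columns of the authors' own comparison (log2 fold change, its standard error on a log2 scale, p-value and adjusted p-value) were deposited too and were not used.

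Groups and replicate numbers came from the labels. The test was that of edgeR 4.0.16, run in R 4.3.3 on raw counts (TMM, filterByExpr with a minimum count of 10, quasi-likelihood F-test, all 4 libraries in 1 fit with 2 residual and 8.96 prior degrees of freedom), adjusted over 12794 genes. Of the 20372 genes, 4067 had no read. Libraries of a group differed by more than sampling noise (chi-square per degree of freedom of 7.91 and 14.0) and were kept apart. The test was also run on simulated counts, and the outcome is not reported here. Alternatives were DESeq2 1.42.0, other scalings, no filter, the replicate number as a block, leaving out each library, and removal of per-library loess trends (span 0.3) over transcript length, coding length or GC content of GENCODE v44 canonical transcripts, matched by Ensembl identifier. Of the tested genes, 162 had no matched transcript length.

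The members, classes and partner lists were chosen with earlier results of these data known. All members could be named, and values in every library were given for the 12 with the smallest p, for the 2 most abundant and the 2 with the smallest p in each class, and for NDUFA4, NDUFA4L2, NDUFAB1 and NDUFC2-KCTD14. NDUFV1, NDUFS6, NDUFS8, NDUFA13 and the other called members were named after their values were seen. Of each partner list, MT-ND genes and up to 3 genes with the smallest p were named by rule, and the others were named after their values were seen. Values of 1 core subunit and 1 marker gene are not reported here, although counts and medians include the subunit. Gene coordinates are those deposited (hg19), and promoters are RefSeq GRCh38.p14.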

Additional observations from a re-analysis of the deposited data

How the results depend on the processing

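The count of 18 complex I genes rising became 10 with the transcript length trend removed and 6 to 21 on leaving out 1 library. It stayed at 14 to 18 under the other alternatives. The count of 2 falling became 4 with library totals only, 1 with DESeq2, 7 with the transcript length trend removed, 6 with the coding length trend removed, 0 with the GC trend removed and 0 to 3 on leaving out 1 library. Over all genes, 1643 rose and 1446 fell, against 479 to 1904 and 462 to 1480 on leaving out 1 library, with the lowest counts without RETi replicate 1. The median log2 fold change of the members, 0.22, was 0.10 with the transcript length trend and 0.12 with the coding length trend removed, and 0.13 to 0.33 without 1 library. For core subunits -0.094 became -0.21 and -0.040, and -0.15 to -0.032 without 1 library. For accessory subunits 0.30 became 0.10 and 0.15, and 0.19 to 0.41 without 1 library. For assembly factors 0.22 became 0.19 with library totals only, 0.12 with the GC trend and 0.20 with the coding length trend removed, and 0.16 to 0.23 without 1 library. The cause of these shifts was not tested.

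Of 377 values of 29 named genes under the alternatives, 305 kept their direction and side of the threshold, 53 lost a call, 11 gained a call and 8 changed sign. Among these 29 genes the sign changes were NDUFA1 with the transcript length trend removed (-0.015), NDUFS7 with that trend removed (-0.13) and without RETi + FGFRi replicate 2 (-0.022 to 0.18 over the libraries left out), and NDUFB4 with library totals only (-0.0054), with the transcript length trend (-0.22) or coding length trend (-0.15) removed, and without RETi replicate 1 or RETi + FGFRi replicate 2 (-0.059 to 0.11 over the libraries left out). Over all 45 tested members, 36 positive values became 27 with the transcript length trend removed, 29 with the coding length trend removed and 30 without RETi + FGFRi replicate 2. Library totals only moved the median of all genes by -0.029 on the log2 scale, and the other scalings moved it less.

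With the replicate block, 18 members rose and 3 fell, and 2041 and 1738 of all genes, at a correlation of 0.025 between replicate deviations of the groups. Differences between replicates were thus nearly unrelated between the groups. With 2 libraries in each group this cannot settle whether the numbers pair the libraries. With 2 libraries per group and few reads, NDUFA13 and NDUFA7 gave little precision.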

Other observations

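Other letters known from promoters of nuclear respiratory genes were also counted on both strands of the 49 RefSeq promoter entries of the members. The YY1-type letters AAGATGGCG were present in 6 entries (12.2%, against 1.75% of all 35116 promoters). Of these genes NDUFA6 and NDUFS4 rose, NDUFA9 and NDUFS7 did not pass the test and NDUFA7 had too few reads, and the NDUFB8 entry stands for 2 rows of the table. The ERR-type letters AAGGTCA were present in 5 entries (10.2%, against 3.92%). These belong to 4 genes, because overlapping windows of NDUFA5 were counted separately. Of these genes NDUFA5 rose, NDUFS6 fell, and NDUFB4 and NDUFS7 did not pass the test. The ETS-type letters CCGGAAG were present in 6 entries (12.2%, against 10.3%). Here NDUFA1, NDUFB7 and NDUFS3 rose, and NDUFA13, NDUFAF4 and NDUFS1 did not pass. The counts are descriptions of letters in a window, and the motifs were not tested against the changes.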
